A study of Gallus gallus with 5 samples.

Results

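The histone mark H3R2me2s (arginine 2 of H3, dimethylated symmetrically) was compared with H4R3me2a (arginine 3 of H4, dimethylated asymmetrically) in chromatin of immature chicken erythrocytes. The comparison was made within each sequencing platform, so it used 4 of the 5 peak lists of the series: H3R2me2s and H4R3me2a from SOLiD libraries (replicate 1) and H3R2me2s and H4R3me2a from Illumina libraries (replicate 2). The remaining list, from input chromatin sequenced on Illumina, served as background. All libraries came from polychromatic erythrocytes in G0, a stage of nucleated red cells that has left the cell cycle. The labels name no treatment and no genetic change for any group. Chromatin was fixed with 0.5% formaldehyde, sheared to 200 bp and precipitated with 1 antibody for each mark, and the SOLiD libraries were size selected at 100 to 250 bp, per the labels' protocols. The lists hold no expression values, so the cell type could not be checked against markers. Each mark has a pair of biological replicates by the series' design text, which names no animals.

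Arginine residues of histone tails are methylated by the PRMT enzymes. PRMT1 lays down H4R3me2a, and in chicken erythroid cells PRMT1 has been studied for its part in keeping the globin domain in an active chromatin state. PRMT5 lays down symmetric marks, among them H3R2me2s, which is known as a mark bound by the WDR5 subunit of H3K4 methyltransferase complexes. Both marks are therefore known from active chromatin, and the comparison asks where along the genome they take different places.

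The genome was cut into bins of 100 kb, and of 10327 bins, the 10079 with a peak in at least 1 of the 4 lists were compared. For each bin the percent of bases covered by peaks was ranked within its list and written as a percentile, from 0 for the least to 100 for the most covered bin. The rank difference is the H3R2me2s percentile minus the H4R3me2a percentile on 1 platform, in points, so a positive value means a higher place for H3R2me2s. Ranks were used because the lists differ in length and in total cover. H3R2me2s had 103231 peaks from 14.2 M filtered tags and H4R3me2a 77936 peaks from 10.3 M on SOLiD. On Illumina, H3R2me2s had 120536 peaks from 35.1 M filtered tags and H4R3me2a 113426 peaks from 31.2 M. H3R2me2s was thus the deeper library and the longer list on both platforms, and its cover was the higher one in 71.4% of bins on SOLiD and in 96.0% on Illumina. The SOLiD lists were called against a control and the Illumina lists, from deeper libraries and a later version of the caller, without one, so these cannot be told apart from platform. The list names in the Illumina headers matched the labels but the numbers of their alignment files did not. The H3R2me2s header held the number that the H4R3me2a label gives, and the H4R3me2a header that of the input label. The input header held that of the H3R2me2s label. The Illumina difference and the input list therefore rest on the labels.

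The marks ranked the genome nearly alike. The Spearman correlation of cover between H3R2me2s and H4R3me2a was 0.946 on SOLiD and 0.976 on Illumina over the 10079 bins. The bins of a list share its library and depth. The same mark compared between platforms gave lower values, 0.905 for H3R2me2s and 0.880 for H4R3me2a. In points, the median size of the difference between the marks was 4.24 on SOLiD and 3.88 on Illumina, while the median size of the difference between platforms was 7.26 for H3R2me2s and 7.85 for H4R3me2a. Moving from one platform to the other therefore displaced a bin further than moving from one mark to the other.

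The platforms gave the marks the same order in somewhat more than every other bin. The rank difference had the same sign on both platforms in 5829 of the 10072 bins with a difference on both, or 57.9% (Wilson 95% interval 56.9 to 58.8), and the opposite sign in 4243, or 42.1%. H3R2me2s held the higher place on both platforms in 2582 bins and H4R3me2a in 3247. Bins without a peak of either mark on a platform entered these counts, since all empty bins of a list share its lowest percentile. On SOLiD, 510 bins were empty for both marks and stood at percentile 3.20 for H3R2me2s and 5.84 for H4R3me2a, a difference of -2.64 points that no peak gave, and on Illumina 51 bins stood at 0.422 and 0.878. With these bins left out and the other 9518 ranked anew, 58.1% (57.1 to 59.1) had the same sign, 2534 of them higher for H3R2me2s and 2990 higher for H4R3me2a, and rho was 0.202. Across bins the SOLiD and Illumina differences correlated weakly, with a Spearman rho of 0.191 and a Pearson r of 0.179. These differences share no library between platforms, although neighbouring bins are not independent: bins next to each other correlated at 0.0676 on SOLiD and 0.149 on Illumina, so the interval, which covers counting error only, is too narrow.

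**Figure D1:**
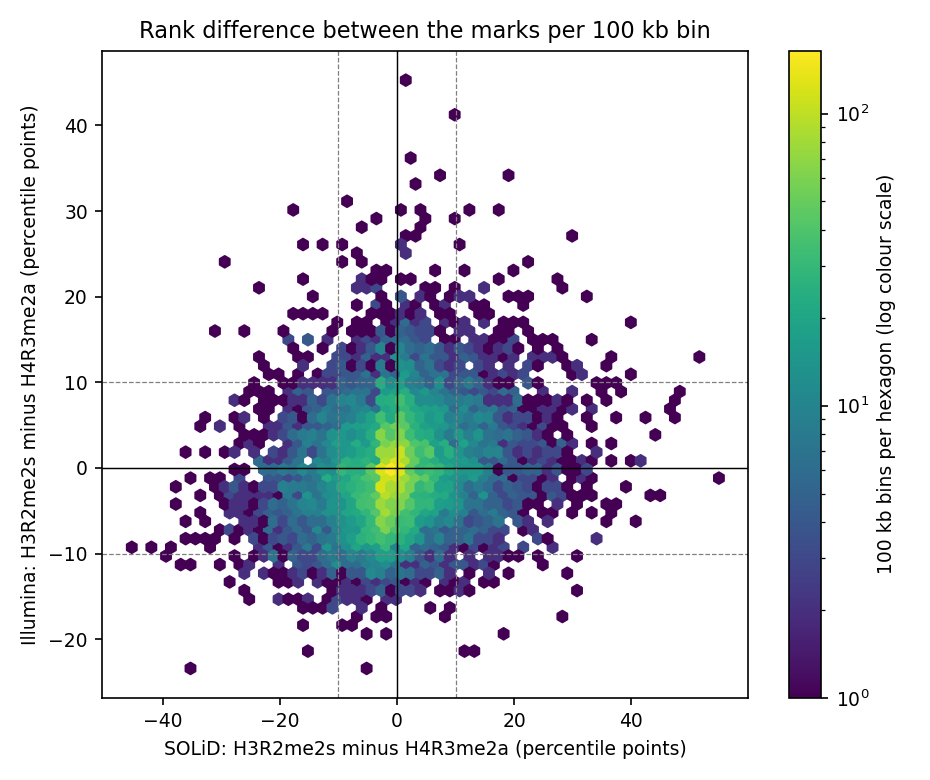
Rank difference between the marks, H3R2me2s minus H4R3me2a in percentile points, on SOLiD (x axis) and Illumina (y axis) for 10079 bins of 100 kb. Colour gives the number of bins per hexagon on a log scale, solid lines mark 0 and dashed lines mark 10 points; most bins lie near the centre and the cloud has little slope, with a rho of 0.191.

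No single bin passed a test against the replicate spread. limma, with platform as a block and Benjamini-Hochberg adjustment over 10079 bins, called 0 bins (0%) higher for H3R2me2s and 0 (0%) higher for H4R3me2a. The smallest adjusted p was 0.616. Without adjustment 776 bins, or 7.70%, had p under 0.05, of which 450 were higher for H3R2me2s and 326 higher for H4R3me2a. Each bin had 1 residual degree of freedom, and limma added 7.23 prior ones from a trend of spread with mean rank over all bins. The p-values measure only the spread between these libraries, which differ in platform as well as in sample. The bins below are therefore described by the size of their difference and were not called by the test.

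Bins far apart in rank kept their direction more often than bins close in rank. Among the 5368 bins at least 2 points apart on both platforms the same-sign share was 60.6% (59.3 to 61.9), and it was 65.6% (63.4 to 67.6) of 2009 bins at 5 points and 75.1% (70.4 to 79.3) of 361 bins at 10 points. At 15 points it was 70.8% (56.8 to 81.8) of 48 bins, an interval that overlaps those at 5 and 10 points. At 10 points, 156 bins (1.55%) were higher for H3R2me2s on both platforms and 115 (1.14%) higher for H4R3me2a on both, while 90 (0.893%) were that far apart in opposite directions.

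Agreement between the platforms also went with how much of a bin the marks covered. Bins were split into 5 equal groups (quintiles) by their mean rank over the 4 lists. In the lowest quintile, where H3R2me2s covered 0.632% and H4R3me2a 0.385% of a bin on SOLiD and 1.79 and 1.08% on Illumina, the same-sign share was 51.7% (49.5 to 53.8) and rho was 0.0396. In the quintiles between the share was 57.0, 59.2 and 60.4%. In the highest quintile, where H3R2me2s covered 34.4% and H4R3me2a 30.5% on SOLiD and 19.8 and 13.8% on Illumina, it was 61.1% (58.9 to 63.2) and rho was 0.319. The lowest quintile held 504 of the 510 bins empty on SOLiD, and without empty bins its share was 52.3% (50.1 to 54.5) and its rho 0.0796. Differences in points were smallest in the highest quintile, with a median size of 1.07 on SOLiD against 5.28 in the lowest quintile. The quintile with the highest share was thus the one with the smallest differences in points.

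The same-sign share also varied by chromosome class. On the microchromosomes (11 to 28), the small gene-rich chromosomes of birds, the same-sign share was 63.5% (61.2 to 65.8) of bins and rho was 0.363. On the intermediate chromosomes (6 to 10) they were 59.5% (56.9 to 62.0) and 0.282, on the macrochromosomes (1 to 5) 56.8% (55.6 to 58.0) and 0.164, and on Z, one of the sex chromosomes, 50.3% (46.7 to 54.0) and 0.125. By quintile of cover, from the lowest to the one below the highest, the share was 50.9% (41.6 to 60.2), 67.8% (59.0 to 75.4), 72.6% (65.2 to 79.0) and 61.3% (55.9 to 66.3) on microchromosomes. On Z it was 50.5% (44.7 to 56.3), 51.4% (45.3 to 57.4), 45.4% (37.1 to 54.0) and 57.1% (42.2 to 70.9). The intervals were apart in the second and the third quintile and overlapped in the first and the fourth. They cover counting error only and are too narrow for bins that are not independent, so they are no test of the classes. In the highest quintile, where Z had fewer than 20 bins, the microchromosome share was 63.7% (60.7 to 66.6). The gap of 13.2 percentage points between microchromosomes and Z was 3.53 points by number of peaks and 4.63 points where only the 50% of peaks with the higher fold were kept, and lay between 3.53 and 19.5 points over 12 alternatives.

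**Figure D2:**
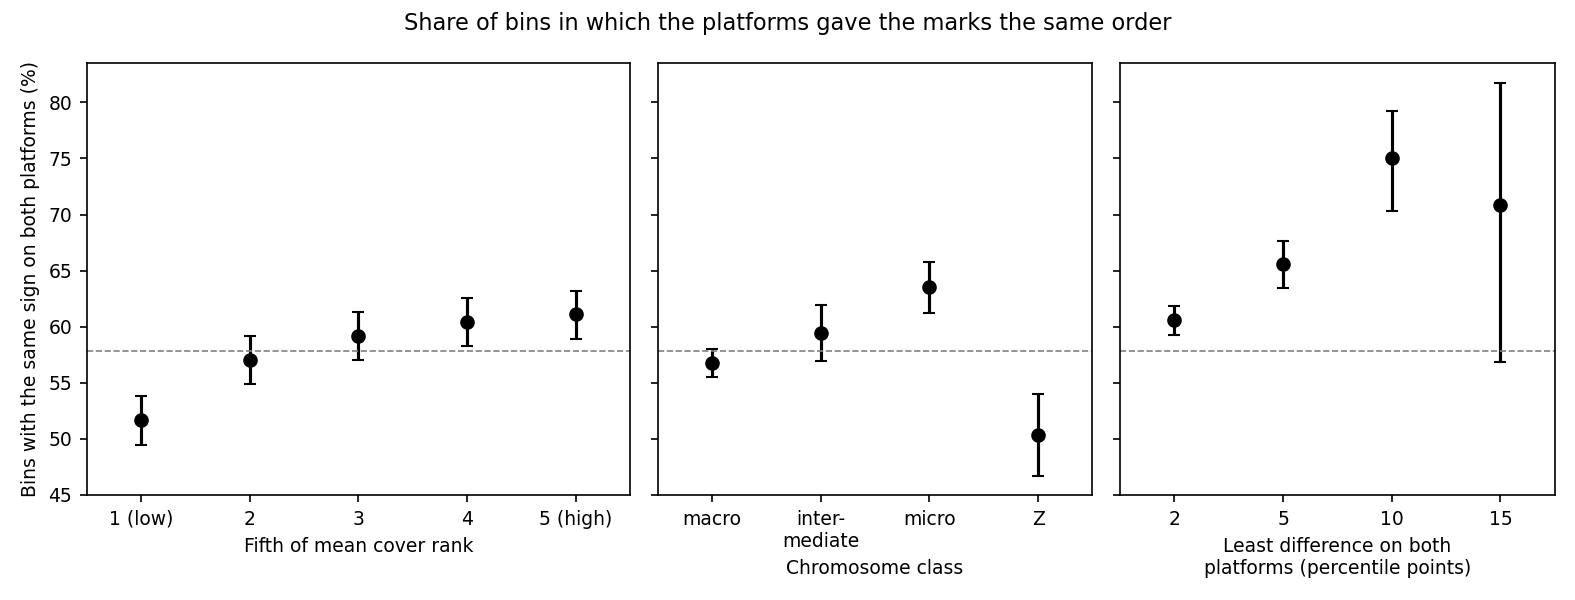
Percent of 100 kb bins in which the rank difference between H3R2me2s and H4R3me2a had the same sign on both platforms, by quintile of mean cover rank (left), chromosome class (middle) and least size of the difference on both platforms (right). Points are shares, bars are Wilson 95% intervals and the dashed line is the share of all bins, 57.9%; the share is 51.7% in the lowest quintile, 63.5% on microchromosomes and 50.3% on Z.

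Z was the class with the widest gap between the platforms. In 728 Z bins the mean percentile was 36.1 for H3R2me2s and 38.3 for H4R3me2a on SOLiD, a difference of -2.21 points, but 23.4 for H3R2me2s and 19.8 for H4R3me2a on Illumina, a difference of 3.61 points. The platform means lay on opposite sides of 0 in the other classes too, closer to it, at 0.0519 and -0.183 points on macrochromosomes, 0.573 and -1.01 on intermediate chromosomes and 0.246 and -0.0139 on microchromosomes. Without empty bins the microchromosome means were 0.272 and 0.0318. H3R2me2s covered 3.42% and H4R3me2a 3.22% of a Z bin on SOLiD, and 3.56 and 2.01% on Illumina. The mean over the platform pairs was 0.703 ± 4.12 points (SD, n = 2 pairs; 2-sided exact permutation within pairs p = 1, smallest possible p 0.5). Of the 90 bins at least 10 points apart in opposite directions 16 were on Z, which is 2.20% of Z bins against 0.893% of all bins. H3R2me2s was the higher mark on Illumina in all 16, and in 51 of all 90. On Illumina the Z peaks of the marks also stood at different places by deposited fold enrichment, with a mean percentile of 55.9 for H3R2me2s and 65.0 for H4R3me2a. The corresponding SOLiD percentiles were 26.9 for H3R2me2s and 23.8 for H4R3me2a. The sex of the birds, which sets the number of Z copies, was not used here.

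Between micro- and macrochromosomes no separation of the marks was detectable with 2 pairs. On SOLiD the mean percentile was 74.8 for H3R2me2s and 74.5 for H4R3me2a on microchromosomes, and 42.8 for both on macrochromosomes. On Illumina it was 73.5 for both marks on microchromosomes, and 45.2 for H3R2me2s and 45.4 for H4R3me2a on macrochromosomes. The rank difference on microchromosomes minus that on macrochromosomes was 0.182 ± 0.0180 points (SD, n = 2 pairs; 2-sided exact permutation within pairs p = 0.5, the smallest that 2 pairs allow). This value turned negative in several alternatives, to -2.62 where only the 50% of peaks with the higher fold were kept, so no direction is given for it.

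Bins on input peaks stood lower for H3R2me2s relative to H4R3me2a on both platforms. In the 5395 bins without an input peak the mean rank difference was 0.566 points on SOLiD and 0.861 on Illumina. In 3724 bins with input cover under 0.5% it was -0.439 and -0.588, in 807 bins with input cover of 0.5 to under 2% it was -1.41 and -2.30, and in 153 bins with 2% or more it was -1.83 and -3.90. Between bins with input cover of 0.5% or more and bins without any, the step was -2.04 points on SOLiD and -3.41 on Illumina. The order from no input cover to 0.5 to under 2% was found on both platforms on macrochromosomes, intermediate chromosomes and microchromosomes, and Z did not follow it. At 2% or more it went on, on both platforms, on macrochromosomes only (-2.39 and -4.69). Intermediate chromosomes went from -4.01 and -4.20 at 0.5 to under 2% to -1.15 and -3.00 in 20 bins. Microchromosomes went from -2.13 and -2.18 to -1.27 and -3.47. With all peaks that touch an input peak left out of the 4 lists, the step was smaller, at -0.394 points on SOLiD and -1.80 on Illumina. A larger share of H4R3me2a peaks lay on input peaks, at 3.72% for H3R2me2s and 5.16% for H4R3me2a on SOLiD and 6.13% for H3R2me2s and 6.63% for H4R3me2a on Illumina. The part of input signal in the difference between the marks was not tested beyond these values.

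The outer parts of the macrochromosomes stood higher for H3R2me2s. Within 5 Mb of an end the mean rank difference over 501 bins was 3.16 points on SOLiD and 1.36 on Illumina, and in the 5648 bins further in it was -0.224 and -0.319. Of the 10 ends, 7 had a mean above 0 on both platforms and 0 had a mean below 0 on both. The exceptions were both ends of chromosome 3, at 3.89 and 5.63 points on SOLiD and -2.21 and -1.24 on Illumina, and the start of chromosome 5, at 1.63 and -0.308. Of the 501 bins within 5 Mb of a macrochromosome end, 18 were at least 10 points higher for H3R2me2s on both platforms and 0 for H4R3me2a. A further 3 were that far apart in opposite directions. Of the 5648 bins further in, these numbers were 71, 77 and 56. Over all bins the shares were 1.55% for H3R2me2s, 1.14% for H4R3me2a and 0.893% for opposite directions. Input cover was higher near the ends, at 0.296% within 5 Mb against 0.189% further in. Cover by the marks was higher there too. On SOLiD it was 16.7% within 5 Mb against 4.84% further in for H3R2me2s, and 13.8 against 3.90% for H4R3me2a. On Illumina it was 12.8 against 7.05% for H3R2me2s and 8.57 against 4.87% for H4R3me2a. Outer and inner bins were not compared at equal cover. In bins without input peaks alone the step between outer and inner bins was 4.19 points on SOLiD and 1.88 on Illumina. On intermediate chromosomes the step pooled over 5 Mb was smaller, at 1.30 points on SOLiD and 0.438 on Illumina. The means there were 1.47 and -0.708 points within 5 Mb of an end and 0.167 and -1.15 further in. Only the zone at 2 to 5 Mb, with 2.55 and -0.245, stood above the inner bins on both platforms. The means were -0.183 and -0.979 under 1 Mb and -0.424 and -1.90 at 1 to 2 Mb. On macrochromosomes the step was 3.38 points on SOLiD and 1.68 on Illumina. Their means were 2.42 and 1.82 under 1 Mb, 3.28 and 1.03 at 1 to 2 Mb and 3.37 and 1.30 at 2 to 5 Mb.

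**Figure D3:**
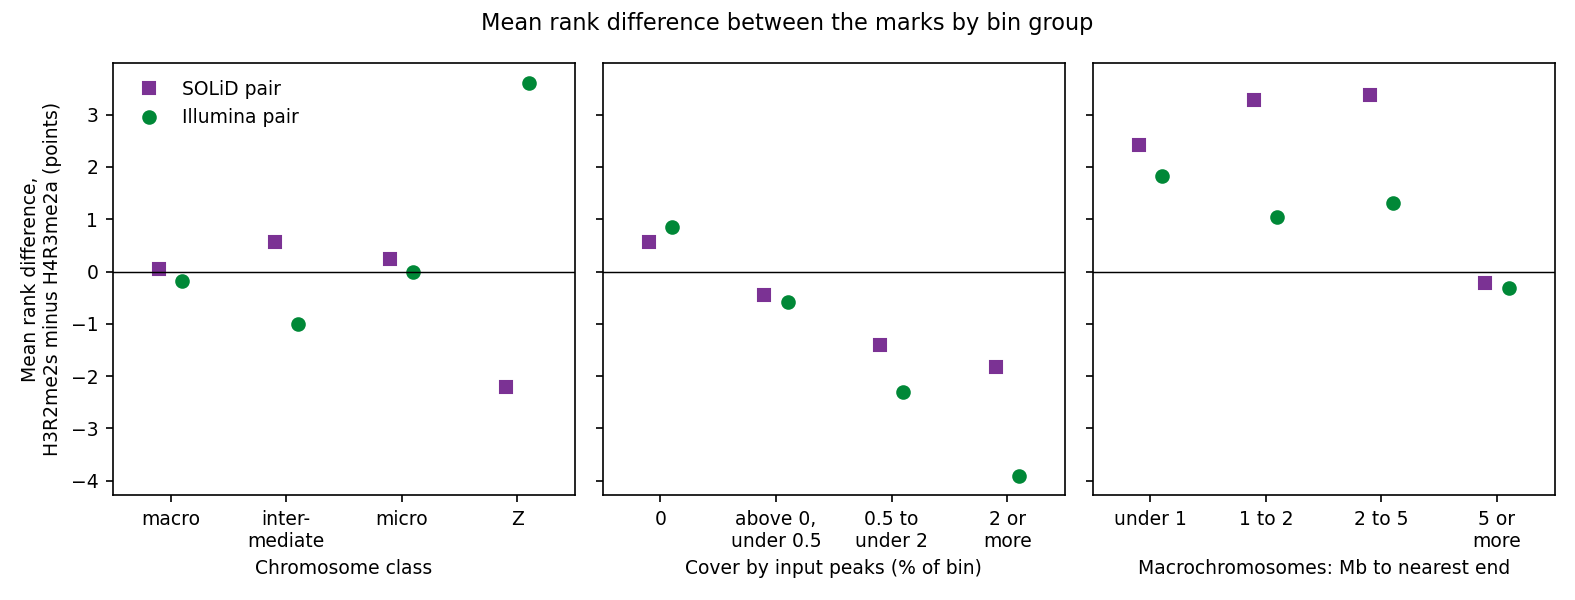
Mean rank difference, H3R2me2s minus H4R3me2a in percentile points, by chromosome class (left), percent of the bin covered by input peaks (middle) and distance to the nearest chromosome end on macrochromosomes (right). Squares are the SOLiD pair and circles the Illumina pair, 1 library per mark each, with no error bar; the pairs stand on opposite sides of 0 in every class and furthest apart on Z (-2.21 and 3.61), and both go down with input cover to -1.83 and -3.90.

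Single chromosomes differed little and were named by their median rank difference. Of the 27 chromosomes with 20 or more bins, 6 had a median above 0 on both platforms, 12 below 0 on both and 9 turned between platforms, and all medians lay between -2.86 and 2.60 points. Without the bins empty for both marks on a platform these numbers were 6, 11 and 10. Chromosomes 22, 26 and 24 were highest for H3R2me2s. Chromosome 22 had medians of 0.913 points on SOLiD and 2.60 on Illumina over 39 bins, chromosome 26 had 0.496 and 1.80 over 51 bins, and chromosome 24 had 0.526 and 1.51 over 64 bins. Their same-sign shares were 53.8% (38.6 to 68.4), 62.0% (48.2 to 74.1) and 71.9% (59.9 to 81.4), with a rho of 0.146, -0.103 and 0.565. Chromosomes 22, 26 and 24 are small. On chromosome 26, H3R2me2s covered 53.5% and H4R3me2a 48.0% of a bin on SOLiD, and 20.6 and 13.2% on Illumina. On chromosome 22, H3R2me2s covered 23.8% on SOLiD, against 25.5% over all microchromosomes. Other small chromosomes with dense peaks did not stand high for H3R2me2s. Chromosome 23 had medians of -0.0893 points on SOLiD and -0.0322 on Illumina, chromosome 27 had -0.570 and -0.159, and chromosome 28 had -0.327 and 0.0298. Chromosomes 11, 5 and 2 were lowest, that is highest for H4R3me2a. Chromosome 11 had medians of -0.992 points on SOLiD and -2.86 on Illumina over 209 bins, chromosome 5 had -0.685 and -1.43 over 599 bins, and chromosome 2 had -1.45 and -0.456 over 1528 bins. Without empty bins chromosome 5 had -0.152 and -1.73 and chromosome 2 had -0.877 and -0.465. Chromosome 8, with 0.0315 and -1.94, then ranked lower than both. Chromosomes 10 (-0.525 and -1.20) and 9 (-0.121 and -1.38) also ranked lower than chromosome 2. The place of chromosome 2 among the lowest thus depended on the empty bins. The SOLiD median of Z, -2.64, was the value that empty bins share, and without those bins the Z medians were -2.63 on SOLiD and 2.00 on Illumina. The same-sign share was highest on chromosome 19, at 75.5% (66.1 to 83.0) of its bins with a rho of 0.611, and lowest on Z. No chromosome of 20 or more bins had a share below 50% (0 of 27).

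**Figure D4:**
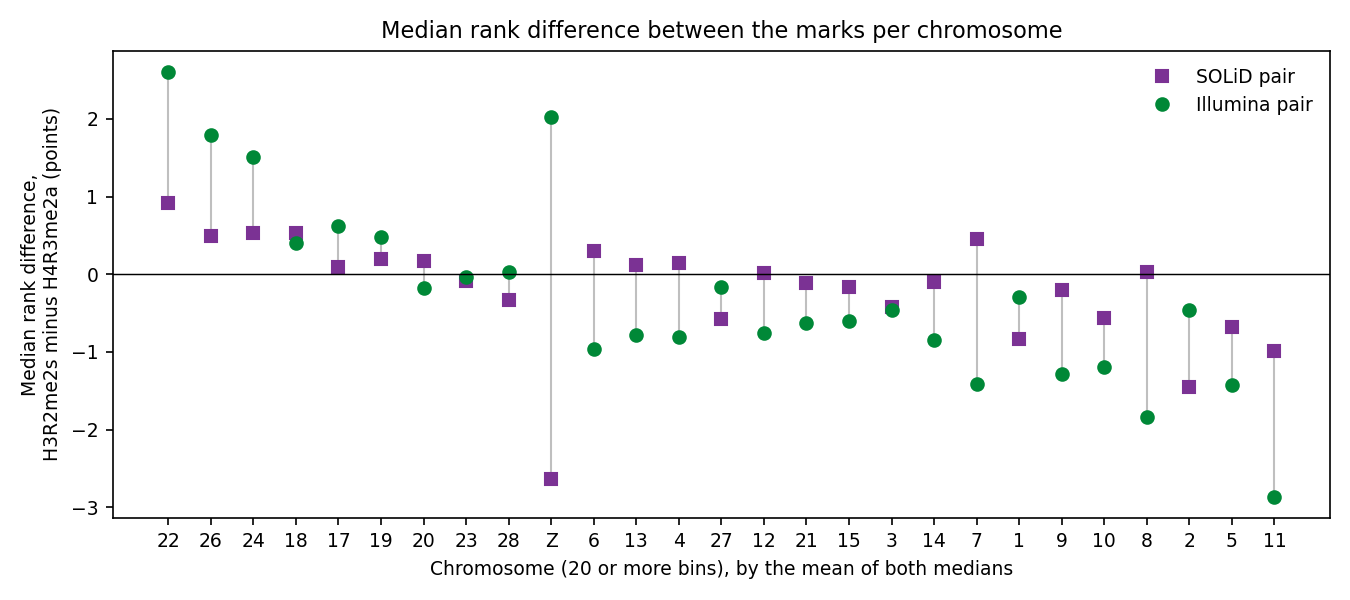
Median rank difference per chromosome, H3R2me2s minus H4R3me2a in percentile points, for the SOLiD pair (squares) and the Illumina pair (circles), over the 27 chromosomes with 20 or more bins, sorted by the mean of both medians. Grey lines join the pairs; chromosomes 22, 26 and 24 lie above 0 and chromosomes 2, 5 and 11 below 0 on both platforms, and Z has the widest gap, -2.64 against 2.02.

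Of the 156 bins at least 10 points higher for H3R2me2s on both platforms, 63 lay in the second and 62 in the third quintile of cover. The lowest quintile held 17 of them. This placement was not particular to H3R2me2s. From the lowest to the highest quintile, the 115 bins higher for H4R3me2a numbered 13, 46, 46, 8 and 2. The 90 bins apart in opposite directions numbered 19, 45, 23, 3 and 0. The SD of the SOLiD difference in the same order was 9.44, 13.0, 11.7, 6.74 and 2.46 points. In the 156 bins the median H3R2me2s cover was 3.02% and the median H4R3me2a cover 1.03% on SOLiD, and 7.61 and 3.34% on Illumina. The medians of all bins were 3.71 and 2.93% on SOLiD, and 7.01 and 4.89% on Illumina. The 156 bins held a median of 5 H3R2me2s peaks and 1 H4R3me2a peak on SOLiD, and 11 and 8 on Illumina, so H4R3me2a had few peaks in them on SOLiD only. H3R2me2s cover was higher in all 156 on both platforms. They made up 3.57% of Z bins, 1.64% of intermediate, 1.45% of macrochromosome and 0.984% of microchromosome bins, against 1.55% of all bins. An input peak lay in 24.4% of them, against 46.5% of all bins.

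Among these, the bin with the largest difference held by both platforms was chromosome 3:71200001-71300000. H3R2me2s covered 2.22% of it and H4R3me2a 0% on SOLiD, and 6.70 and 1.95% on Illumina, which gave differences of 30.1 and 26.6 points. It held 4 H3R2me2s peaks and 0 H4R3me2a peaks on SOLiD, and 12 and 6 on Illumina, and 6 of the 12 Illumina H3R2me2s peaks touched no H4R3me2a peak. The limma difference was 28.4 ± 5.94 points (SE; unadjusted p = 0.00128, adjusted p = 0.616). A percentile for an empty bin is the one shared by all bins without a peak in that list, here 5.84 for H4R3me2a on SOLiD.

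The bins ranked next in this direction included a pair on chromosome 4 less than a megabase apart. At 4:51800001-51900000 H3R2me2s covered 3.003% and H4R3me2a 0.740% on SOLiD, and 10.197 and 3.61% on Illumina, and at 4:52800001-52900000 H3R2me2s covered 3.78% and H4R3me2a 0.758% on SOLiD, and 7.36 and 2.69% on Illumina. On the microchromosome bin 12:15500001-15600000 H3R2me2s covered 2.61% and H4R3me2a 0.376% on SOLiD, and 8.33 and 3.06% on Illumina. All 3 differed by at least 21.4 points on both platforms, with no input peak. The other named bins were 1:56000001-56100000, Z:70800001-70900000, 1:1100001-1200000 and 3:10600001-10700000. The first had the highest SOLiD cover by H3R2me2s of the 8 named bins, with H3R2me2s on 4.10% and H4R3me2a on 0.731% on SOLiD and on 13.1 and 5.29% on Illumina. The Z bin was an instance in which Z went the same way on both platforms, with H3R2me2s on 3.32% and H4R3me2a on 1.08% on SOLiD and on 3.44 and 0.248% on Illumina. At 1:1100001-1200000, which lies near a chromosome end, H3R2me2s covered 2.34% and H4R3me2a 0.594% on SOLiD, and 14.7 and 6.05% on Illumina. At 3:10600001-10700000 H3R2me2s covered 1.71% and H4R3me2a 0% on SOLiD, and 5.09 and 1.65% on Illumina. Over all 8 bins, 35 of the 40 SOLiD and 59 of the 116 Illumina H3R2me2s peaks touched no H4R3me2a peak of the same platform, and 2 of 7 SOLiD and 6 of 66 Illumina H4R3me2a peaks touched no H3R2me2s peak. Over the whole lists 30.6% of H3R2me2s and 10.7% of H4R3me2a peaks on SOLiD, and 26.2 and 15.7% on Illumina, touched no peak of the other mark. The bins were chosen for their difference in cover, so these counts describe them only.

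The 115 bins at least 10 points higher for H4R3me2a had smaller absolute gaps. Their median H3R2me2s cover was 1.90% and their median H4R3me2a cover 2.79% on SOLiD, and 4.10 and 4.01% on Illumina. H4R3me2a cover was the higher one in all 115 on SOLiD, but on Illumina H3R2me2s still covered more in 65 of them. The whole Illumina lists covered 8.78% of the spanned genome for H3R2me2s and 6.02% for H4R3me2a. A higher rank for H4R3me2a is therefore a higher place within its own list and not always a higher cover. These bins made up 1.25% of macrochromosome, 1.04% of microchromosome, 1.03% of intermediate and 0.687% of Z bins, against 1.14% of all bins. An input peak lay in 52.2% of them, near the 46.5% of all bins.

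The bin with the largest difference held by both platforms in this direction was chromosome 2:68000001-68100000. H3R2me2s covered 0.435% of it and H4R3me2a 2.25% on SOLiD, and 1.85 and 3.14% on Illumina, which gave differences of -35.7 and -22.9 points. It held 1 H3R2me2s peak and 3 H4R3me2a peaks on SOLiD and 2 and 6 on Illumina, and 4 of the 6 Illumina H4R3me2a peaks touched no H3R2me2s peak. The limma difference was -29.3 ± 6.02 points (SE; unadjusted p = 0.00115, adjusted p = 0.616).

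Chromosome 3:27000001-27100000 was the one dense bin among those named. H3R2me2s covered 8.47% of it and H4R3me2a 17.3% on SOLiD, and 15.9 and 15.8% on Illumina. In rank this was the 70.0 percentile for H3R2me2s and 85.4 for H4R3me2a on SOLiD, and 80.8 and 96.1 on Illumina, so the platforms gave nearly the same difference, -15.3 points on each. It held 13 H3R2me2s and 21 H4R3me2a peaks on SOLiD and 20 and 24 on Illumina, and input peaks covered 0.0990% of it. The 13 SOLiD H3R2me2s peaks all touched an H4R3me2a peak, while 8 of the 21 H4R3me2a peaks touched no H3R2me2s peak. Its limma difference was -15.3 ± 2.10 points (SE) with the smallest unadjusted p of all bins, 7.34e-05 (adjusted p = 0.616). An SE of this fit draws mostly on bins of similar mean rank rather than on the agreement of a bin's own platforms. The bin 2:96000001-96100000, with -16.3 and -16.1 points, had an SE of 4.14 points. With equal numbers of peaks on each platform by p-value, 3:27000001-27100000 was the 1 bin called, with an adjusted limma p of 0.0232. In the other alternatives that used the cover of all 4 libraries limma called 0 bins. The share at unadjusted limma p under 0.05 ran from 0.258% (26 bins) with no replicate block to 12.9% (263 of 2042) in bins of 500 kb. In bins of 50 kb it was 6.56% (1278 of 19491).

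The other bins named for H4R3me2a were smaller cases. At 14:600001-700000 H3R2me2s covered 2.16% and H4R3me2a 3.09% on SOLiD, and 3.87 and 4.52% on Illumina, and at 14:3500001-3600000 H3R2me2s covered 1.81% and H4R3me2a 2.46% on SOLiD, and 2.74 and 3.14% on Illumina. Both lie on a microchromosome and carried input peaks on 0.273 and 0.320% of their bases. The remaining bins were 2:96000001-96100000, 7:20800001-20900000, 5:33700001-33800000 and Z:57700001-57800000, without input peaks. At 2:96000001-96100000 H3R2me2s covered 0% and H4R3me2a 0.669% on SOLiD, and 0.927 and 1.86% on Illumina. At Z:57700001-57800000 H3R2me2s covered 3.23% and H4R3me2a 5.34% on SOLiD, and 2.44 and 2.85% on Illumina. Over all 8 bins, 5 of 33 SOLiD and 1 of 41 Illumina H3R2me2s peaks touched no H4R3me2a peak, and 17 of 45 SOLiD and 25 of 67 Illumina H4R3me2a peaks touched no H3R2me2s peak, which again follows the choice of the bins.

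**Figure D5:**
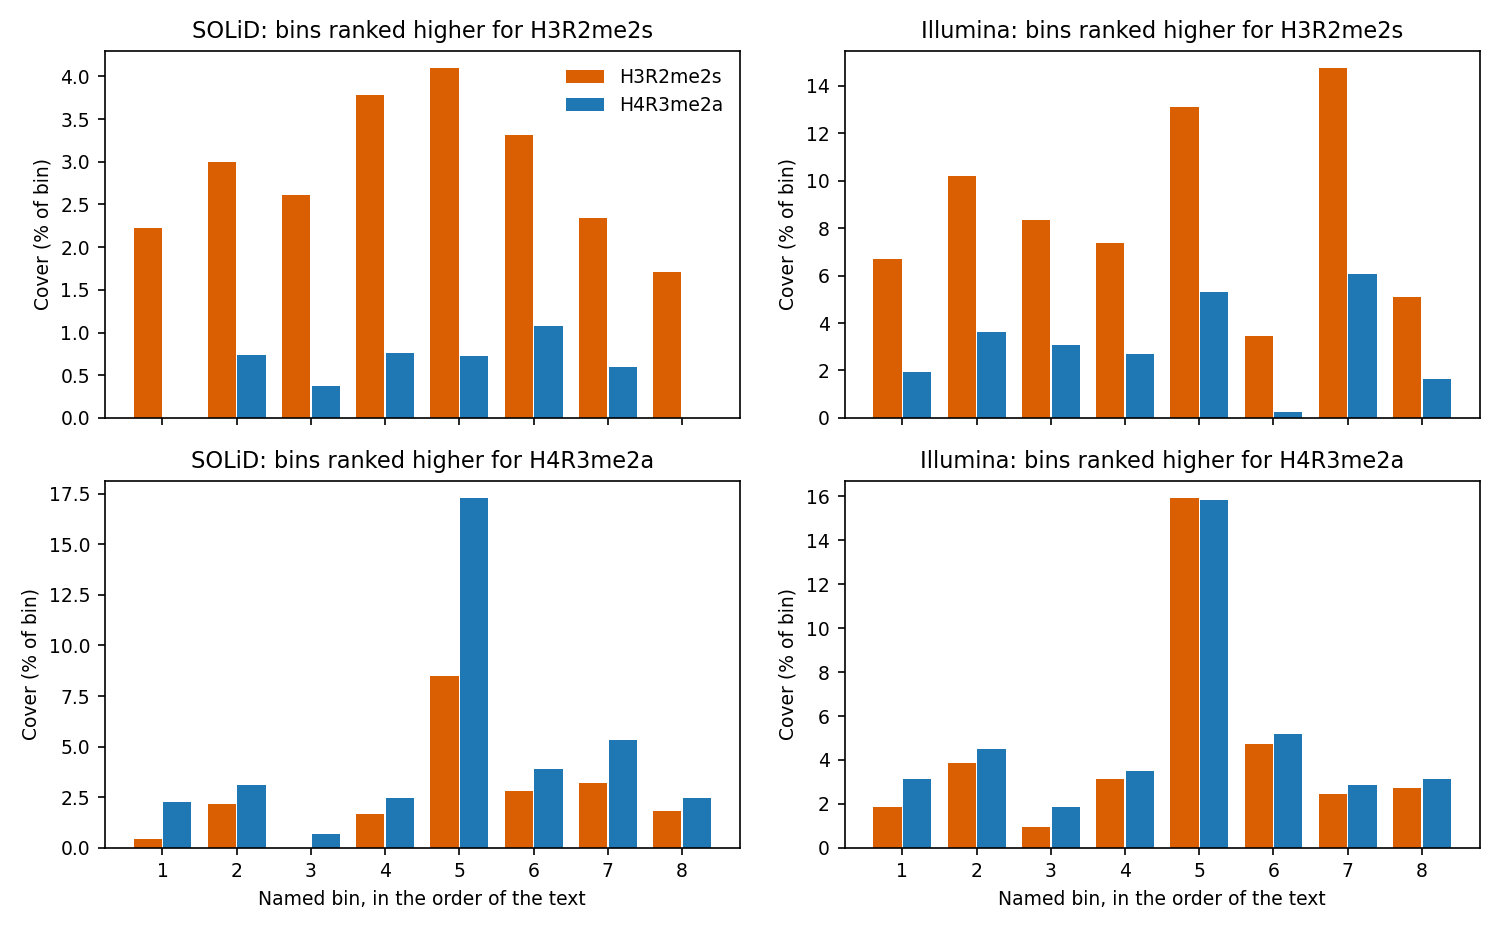
Percent of each named 100 kb bin covered by H3R2me2s peaks (orange) and H4R3me2a peaks (blue) on SOLiD (left) and Illumina (right), for the 8 bins ranked higher for H3R2me2s (top) and the 8 ranked higher for H4R3me2a (bottom), in order of the smaller of their platform differences. Bars are single libraries; in the top row H3R2me2s is higher in every bin on both platforms, and in the bottom row H4R3me2a is higher in every bin except the dense one on Illumina, with 15.9% for H3R2me2s and 15.8% for H4R3me2a.

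Bins that differed by 10 points on both platforms stood alone rather than in long stretches. The 156 bins higher for H3R2me2s formed 154 runs, of which 2 held 2 adjacent bins, and the 115 higher for H4R3me2a formed 109 runs, of which 6 held 2. The runs of 2 bins for H3R2me2s were 2:153200001-153400000, at 17.2 points on SOLiD and 14.8 on Illumina, and 24:2700001-2900000, at 13.3 and 11.6 points. For H4R3me2a the leading ones were 14:500001-700000 (-18.0 and -16.8 points), Z:22400001-22600000 (-22.5 and -13.0) and 4:81300001-81500000 (-18.0 and -14.3). No run in either direction was longer than 2 bins. These bins were 1.55 and 1.14% of all bins, and how often so few bins would adjoin by placement alone was not tested.

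Other readouts of the lists agreed less between platforms than cover did. Ranked by the number of peaks per bin, 52.0% (51.0 to 53.0) of bins had the same sign and rho was 0.0502. Ranked by mean peak width, in 8663 bins that held the midpoint of a peak from each list, the values were 51.8% (50.7 to 52.8) and 0.0481. Ranked by the deposited fold enrichment, as the median percentile of a bin's peaks, they were 49.5% (48.4 to 50.5) and 0.00562. Peak widths of the marks stood in opposite order on the platforms. On macrochromosomes the mean peak width was 762 bp for H3R2me2s and 833 bp for H4R3me2a on SOLiD, and 751 and 561 bp on Illumina. The narrowest peak was 176 bp for H3R2me2s and 212 bp for H4R3me2a on SOLiD, and 334 and 236 bp on Illumina. The fragment size in the caller's header was 151 bp for H3R2me2s and 187 bp for H4R3me2a on SOLiD, and 334 and 236 bp on Illumina. It stood in the same order as the narrowest peak on each platform, and on Illumina it was equal to it. What part fragment sizes and widths had in cover and in the rank differences was not tested.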

How the data were processed

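The members and groupings were chosen with earlier results of these data known. Per the file headers, the authors called each library by itself, the SOLiD lists with MACS 1.4.2 against 1 shared control at p = 1e-05 and the Illumina lists at q = 0.05 with no control and MACS 2.0.10.20120913. The deposited values per peak are tag counts, a score (10 times the −log10 p) and a false discovery rate in percent on SOLiD, a pileup signal and −log10 of p-value and q-value on Illumina, and a fold ratio on both; here they only order peaks within a list. Replicate 1 is SOLiD and replicate 2 Illumina. The aligner is not given in the sources used here, the SOLiD headers hold the word gal3, and all lists share chromosome names. Coordinates are the files' own, and genes were not assigned because no annotation of that build was used here.

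Bins are 100 kb from the first base of each chromosome, mitochondrial DNA left out, with the highest peak end in any list as chromosome length and end bins under 50% of that size left out. Peaks were counted in the bin of their midpoint. Rank percentiles were fitted with limma 3.58.1 in R 4.3.3 (trend, platform block). The pairing comes from the platforms in the labels' protocols, and deviations of same-platform libraries from their mark means correlated at 0.701. Named bins were the 8 per direction with the largest smaller difference on both platforms, at least 10 points, with input cover under 1% and 1 per run, beside the 3 longest runs and the 3 highest and lowest chromosomes. The groups by input cover, cover quintile and distance to an end were chosen after the data were seen, and were not tested. The limma step was run on simulated bins with known shifts, to check that it works as meant. The simulated libraries had less spread than these data, so that run says nothing on power here. Alternatives were equal or stricter peak sets, input filters, other bins, filters and scales, bins with a peak of either mark on each platform, no block, and libraries left out.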

Additional observations from a re-analysis of the deposited data

Results flagged for a closer look

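On Z the mean rank difference between the marks was -2.21 points on SOLiD and 3.61 points on Illumina, so the single pair of each platform went the opposite way. This difference between the platforms was not tested, since each platform holds 1 pair. It recurred in 11 of the 12 alternatives that include Z. Over these 12 the SOLiD value lay between -9.60 and 0.483 and the Illumina value between 1.34 and 5.00. The exception was the upper 50% of each list by fold, with 0.483 points on SOLiD and 1.34 on Illumina.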

How the results depend on the processing

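The same-sign share was above 50% in all alternatives but 1. Against 57.9%, the share was 55.4% and rho 0.143 with equal numbers of peaks by fold, 56.0% and 0.150 by p-value, 52.2% and 0.0565 in the upper 50% of each list, 56.3% and 0.150 without peaks on input peaks, 52.0% and 0.0502 by number of peaks, 56.4% and 0.157 in bins of 50 kb, 61.1% and 0.285 in bins of 500 kb, 58.9% in all bins, and 56.1% and 0.148 in bins without input peaks. With a peak in each list rho was 0.222. Other settings were added after the data were seen. With these, the share and rho were 56.1% and 0.148 in bins without input peaks and 56.4% and 0.168 by log2 relative cover. They were 51.8% and 0.0481 by mean width and 49.5% and 0.00562 by fold percentile. Bins at least 10 points higher for H3R2me2s and H4R3me2a numbered 461 and 210 in the upper 50%, 482 and 346 at 50 kb and 5 and 3 at 500 kb, and 92 for H3R2me2s in bins without input peaks. On a single platform they numbered 634 to 1211 for H3R2me2s and 434 to 1130 for H4R3me2a, leaving out each replicate in turn. limma called 1 bin for H4R3me2a with equal numbers by p-value, and 11 for H3R2me2s and 1 for H4R3me2a by number of peaks. In the fit by number of peaks the spread came wholly from the trend over all bins. A bin's own disagreement between platforms did not enter it. Without a platform term, leaving out each library gave 0 to 6 bins for H3R2me2s, the 6 without H4R3me2a replicate 1, and 0 for H4R3me2a; the lone library of a mark is assumed to vary like those of the other mark. With no replicate block limma called 0 bins in either direction (26 at unadjusted p under 0.05). The difference of micro- and macrochromosomes was -0.827 with equal numbers by fold, -0.278 by p-value and -2.62 in the upper 50%. It was 0.144 without peaks on input peaks, 0.0396 by number of peaks, 0.532 at 50 kb and -0.269 at 500 kb. With a peak in each list it was 0.317, and in all bins 0.135. Settings added after the data were seen gave 0.133 on chromosomes 1 to 28 and 0.731 in bins without input peaks. A further setting of this kind gave 0.220 without bins empty on a platform. On a single platform the difference was 0.169 and 0.194. The step with input cover kept its sign in 12 alternatives (-3.45 to -1.10 points), the step at macrochromosome ends in 13 (1.27 to 3.08), though on Illumina alone it was -0.521 in the upper 50%. The gain in same-sign share from lowest to highest quintile was 9.43 percentage points, and 0.0993 to 11.1 over 13 alternatives, lowest by number of peaks. The same-sign share cannot be had from 1 platform. Bins with few peaks limit precision, and each platform has 1 library per mark.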
